A study of Mus musculus with 4 samples.

Results

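The subtelomeric regions of the 19 mouse autosomes were examined for chromatin accessibility in MERVL- and Zscan4c-positive embryonic stem cells and in cells negative for both. Joining peaks of the 4 libraries wherever they overlapped by 1 bp or more gave 50231 union regions, of which 47709 lay on chromosomes 1 to 19. A region was taken as subtelomeric if its end lay within 2 Mb of the largest peak end of its chromosome in any of the 4 lists. This rule uses positions alone, and it gave 911 regions, with 46798 regions left as the rest of the same chromosomes. Distances from the end of a chromosome are counted from its largest peak end, and how far that lies from the telomere was not known.

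All libraries came from the J1 line of embryonic stem cells, of 129SV strain origin, grown without feeders on gelatin in serum and leukemia inhibitory factor. The DR+/+ population was positive for MERVL and Zscan4c and the DR-/- population was negative for both, with 2 libraries each. Accessibility was measured by ATAC-seq, in which the transposase Tn5 cuts and tags open DNA, and the data are 4 lists of peaks on mm9, 1 from each library. Whether the 2 libraries of each population were grown separately is not in the labels, so their spread could be technical alone, and 1 cell line is the only model here.

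Mouse autosomes carry their centromere close to one end, so the end with the highest coordinates is the distal arm that closes with a telomere. Subtelomeric DNA lies just inside the telomeric repeats and, like them, carries marks of heterochromatin in mouse cells. MERVL is an endogenous retrovirus, and its long terminal repeats drive transcription in the 2-cell embryo. Zscan4 genes are transcribed at zygotic genome activation and, in embryonic stem cells, in a small and passing fraction of the culture, and they are known for promoting telomere extension by recombination. The comparison therefore asked whether the sequence next to telomeres is opened differently in cells that carry this state. The telomeric repeats themselves were not analysed here.

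The distal windows spanned 38 Mb of sequence in total. Each chromosome contributed between 31 (chromosomes 5 and 8) and 82 (chromosome 15) of the 911 regions. Accessible regions were denser in the distal 2 Mb than elsewhere, at 24.0 against 19.7 regions per Mb, and the density was higher on 14 of 19 chromosomes. The opposite end was denser still, with 29.9 regions per Mb within 2 Mb of the first peak of each chromosome. Within the distal windows the density rose most at the very end. The last 0.25 Mb held 166 regions, or 34.9 per Mb, the next 0.25 Mb held 24.4 per Mb, and the stretch from 0.5 to 1 Mb held 20.7 per Mb. Since each window starts at a peak, its last position is occupied by construction. Subtelomeric regions had a median width of 204 bp, against 197 bp in the rest, and ranged from 103 to 1181 bp.

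Subtelomeric regions were not more often restricted to the DR+/+ population than other autosomal regions. Of the 911, 73 were present in both DR+/+ lists and in neither DR-/- list, termed DR+/+-specific (8.01%, 95% Wilson interval 6.42 to 9.96%). The background over all autosomal regions was 8.92%, and the share in the rest alone was 8.94% (8.68 to 9.2%). The ratio of subtelomeric share to rest was 0.896 (95% counting interval 0.718 to 1.12). Applying to each chromosome its own share outside the window would give 79.8 DR+/+-specific regions, so the observed number was 0.915 times this. Intervals on shares and ratios cover counting error only, and presence on 2 against 2 lists allows no test per region. With each list cut to its 21630 strongest peaks, 34 were DR+/+-specific and 28 DR-/--specific, and the ratio of shares was 1.02 (0.733 to 1.42). Without DR+/+ replicate 1 the ratio was 0.925 (0.801 to 1.07) and without DR+/+ replicate 2 it was 0.854 (0.776 to 0.94). In windows of 5 Mb it was 0.838 (0.721 to 0.973), so the intervals of the last 2 settings lay below 1.

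In the lists as deposited, regions restricted to the DR-/- population were rare near telomeres, as they were in the rest. There were 12, present in both DR-/- lists and in neither DR+/+ list (1.32%, 0.755 to 2.29%), where the background was 1.4%. They were spread over 10 of the 19 chromosomes. With lists of equal length, 28 of 689 subtelomeric regions were DR-/--specific (4.06%, against 4.24% in the rest). In that setting 34 were DR+/+-specific (4.93%, against 4.83% in the rest), so the numbers of both classes depended on list length.

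The class that stood higher near telomeres was the one shared by both populations. Regions present in all 4 lists, termed common, made up 266 of the 911 (29.2%, 26.3 to 32.2%), against a background of 24.8%. The share in the rest was 24.8% (24.4 to 25.1%), a ratio of 1.18 (counting interval 1.06 to 1.31), and 13 of 19 chromosomes had the higher common share in their window. Per length, common regions numbered 7.0 per Mb in the windows and 4.88 per Mb outside, whereas DR+/+-specific regions numbered 1.92 and 1.76 per Mb. No test over libraries applies to a count that needs all 4 lists.

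Regions seen in 1 list alone made up 40.2% of subtelomeric regions (366 regions, 37.0 to 43.4%) and 44.1% of the rest. Those private to DR+/+ replicate 1, the longest list, made up 22.7% of subtelomeric regions (207 regions, 20.1 to 25.6%) and 26.9% of the rest. Private shares for DR+/+ replicate 2 were 7.35% and 7.0%, for DR-/- replicate 1 they were 3.84% and 4.33%, and for DR-/- replicate 2 they were 6.26% and 5.82%. Regions seen in both populations, in any number of lists, made up 50.5% of subtelomeric regions (460 regions) and 45.6% of the rest. Because membership did not depend on presence, all of these counts run over the full 911 regions.

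**Figure D1:**
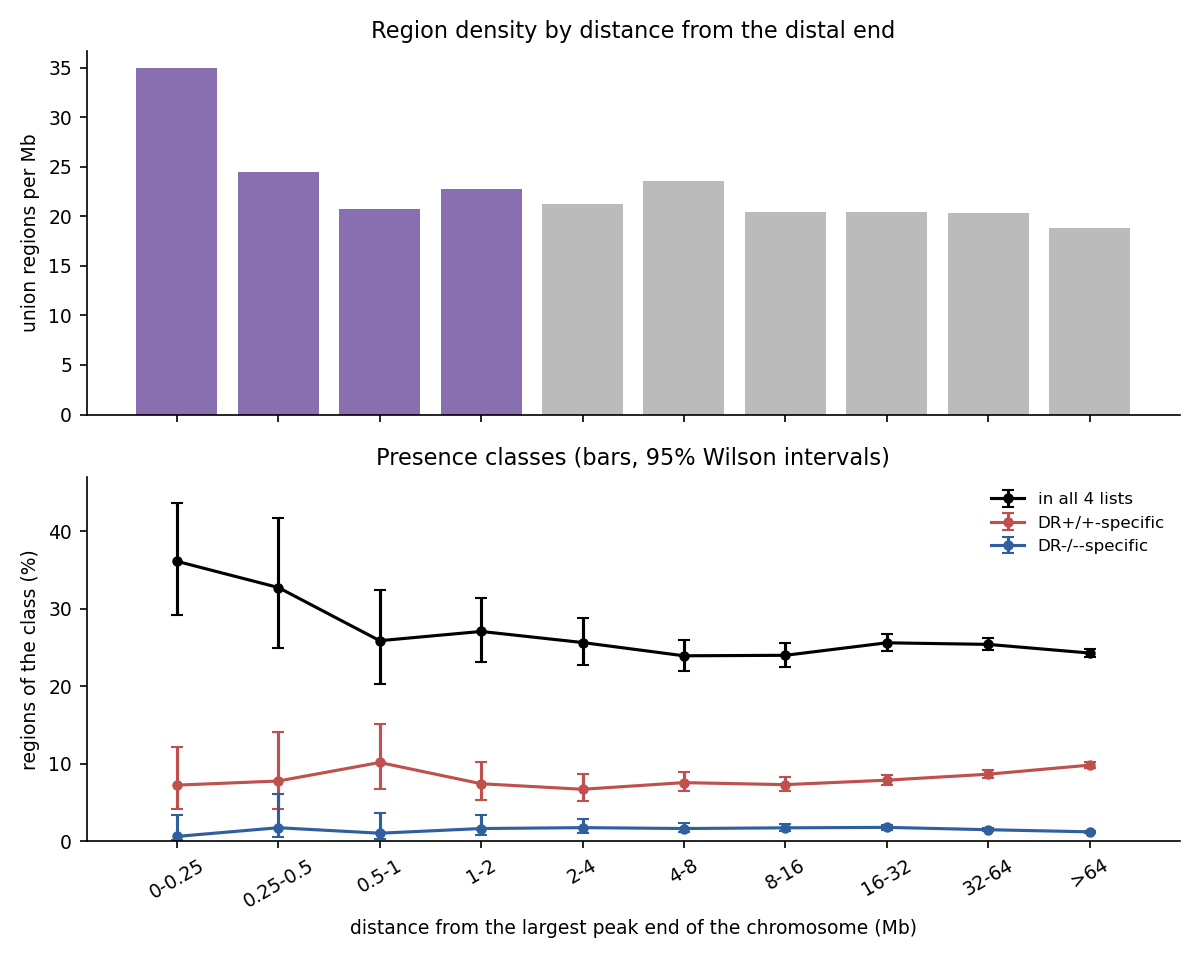
Upper panel, union regions per Mb (y axis) by distance in Mb from the largest peak end (x axis, bins of unequal width), with the 4 bins of the subtelomeric window in purple. Lower panel, percent of the regions in each bin that were common, DR+/+-specific or DR-/--specific, with 95% Wilson intervals. Of these bins the last 0.25 Mb has the highest density and common share, at 34.9 per Mb and 36.1%, and the DR+/+-specific share is highest beyond 64 Mb, leaving aside the bin from 0.5 to 1 Mb with its wide interval.

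Distance along the chromosome separated the classes further. The common share was 36.1% in the last 0.25 Mb (60 of 166 regions, 29.2 to 43.7%) and 32.8% in the next 0.25 Mb (38 of 116, 24.9 to 41.7%). In the wider bins from 0.5 Mb inwards it lay between 23.9% and 27.1%. In steps of 0.5 Mb it did not fall evenly within the window, at 34.8%, 25.9%, 21.5% and 33.0% from the end inwards (98, 51, 48 and 69 regions). The DR+/+-specific share was 7.23% in the last 0.25 Mb (12 regions), 7.76% in the next (9), 10.2% from 0.5 to 1 Mb (20) and 7.41% from 1 to 2 Mb (32). These 4 intervals overlap, and together they run from 4.14% to 15.2%. Between 2 and 16 Mb the DR+/+-specific share was 6.69% to 7.55%, and beyond 64 Mb it was 9.81% (9.43 to 10.2%). The share in the windows was thus close to that of the neighbouring bins. Bins far from the end draw on the longer chromosomes, and beyond 64 Mb on 18 of the 19.

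The opposite, centromere-proximal end of the same chromosomes gave similar values. Within 2 Mb of the first peak of each chromosome, 84 of 1138 regions were DR+/+-specific (7.38%, 6.0 to 9.05%), 346 were common (30.4%) and 10 were DR-/--specific (0.879%). No difference between the ends was tested, as regions are not replicates.

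Measured per library on the lists as deposited, the distal windows took a slightly smaller mean part of the DR+/+ lists than of the DR-/- lists. DR+/+ replicate 1 had 736 peaks there and replicate 2 had 522, while DR-/- replicate 1 had 424 and replicate 2 had 512. As a share of the autosomal peaks of the list, this was 1.90% (Wilson interval 1.77 to 2.04%) and 2.06% (1.89 to 2.24%) for DR+/+, and 2.06% (1.88 to 2.27%) and 2.19% (2.01 to 2.39%) for DR-/-. The ranges of the populations met without crossing, since DR+/+ replicate 2 and DR-/- replicate 1 were nearly equal. The means were 1.98 ± 0.112% and 2.13 ± 0.091% (SD, n = 2 each), a difference of -0.151 percentage points (exact two-sided permutation test, p = 0.33). That is the smallest p the exact test can give with 2 against 2 libraries, so none of the differences between libraries could pass 0.05. Without DR+/+ replicate 1 the difference was -0.0720, and without DR+/+ replicate 2 it was -0.230. Without DR-/- replicate 1 it was -0.215 and without DR-/- replicate 2 it was -0.0867. With lists of equal length, 21630 peaks each, it was -0.0790 (exact permutation test, p = 0.67), and the populations then overlapped.

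The number of subtelomeric regions with a peak followed the lengths of the lists, which held 40933 and 26866 peaks for DR+/+ (replicate 1 first) and 21630 and 24432 for DR-/-. In that order, 717, 498, 402 and 483 of the 911 regions had a peak, or 78.7%, 54.7%, 44.1% and 53.0%. In the rest the shares were 79.3%, 50.9%, 41.0% and 46.5%. The ratio of the 2 shares, which a longer list brings closer to 1, was 0.993 and 1.07 in DR+/+ and 1.08 and 1.14 in DR-/-. DR+/+ replicate 1 was thus the only library whose presence was not higher near telomeres. The means were 1.03 ± 0.057 and 1.11 ± 0.0459 (SD, n = 2 each), with p = 0.33 in the exact permutation test. The difference of -0.0753 became -0.0288 without DR+/+ replicate 1, -0.125 without DR+/+ replicate 2, -0.110 without DR-/- replicate 1 and -0.0467 without DR-/- replicate 2. With lists of equal length it was -0.0283 (exact permutation test, p = 0.67).

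**Figure D2:**
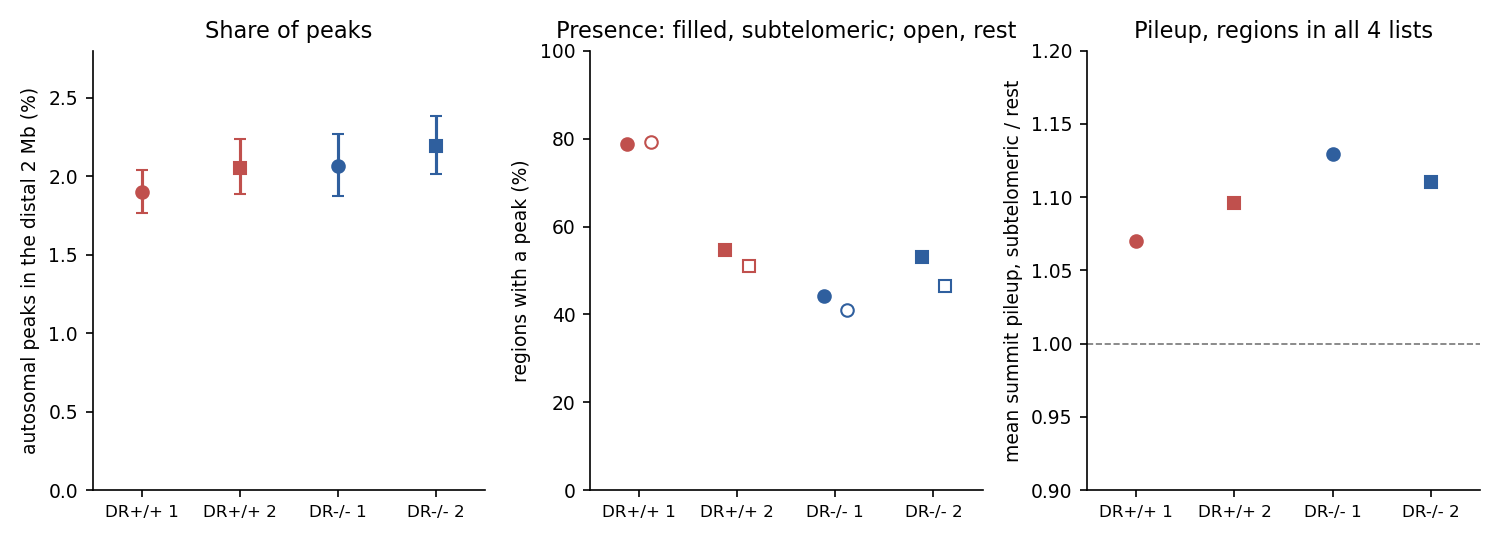
Left, percent of each list's autosomal peaks that lie in the distal 2 Mb windows, with 95% Wilson intervals. Middle, percent of subtelomeric regions (filled) and of the rest (open) with a peak; right, mean summit pileup of common subtelomeric regions divided by that of the other common regions, on an axis that does not start at 0, with 1 marked by a dashed line. The DR-/- ratios in the right panel, 1.13 and 1.11, lie above the DR+/+ ratios, 1.07 and 1.10.

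Subtelomeric peaks were close to other peaks in height and width. The median number of reads piled up at the summit was 16 in every library but DR-/- replicate 2, where it was 17, and 15 or 16 in the rest of each list. A typical value here thus rests on few reads, and a region without a peak may be open below what such depth can show. Median peak widths were 194 and 188 bp in DR+/+ and 183.5 and 179.5 bp in DR-/-, against 188, 189, 173 and 176 bp in the rest, so the ratio to the rest ran from 0.995 to 1.06. The difference between the population means of this ratio was -0.0270 (exact permutation test, p = 0.67). The median percentile of the q-value within the list was 53.0 and 49.7 in DR+/+ and 54.5 and 53.2 in DR-/-. The difference of the means, 51.4 ± 2.34 against 53.9 ± 0.987 (SD, n = 2 each), gave p = 0.33 in the exact permutation test. This difference of -2.49 was -0.833 without DR+/+ replicate 2, and without DR+/+ replicate 1 it was -4.14.

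Among the common regions, which presence cannot separate, the mean summit pileup was higher near telomeres in every library. In DR+/+ it was 27.2 reads for replicate 1 and 23.9 for replicate 2, compared with 25.4 and 21.8 at the other common regions. In DR-/- it was 22.0 reads for replicate 1 and 24.0 for replicate 2, compared with 19.5 and 21.6. The ratios were 1.07 and 1.10 in DR+/+ and 1.13 and 1.11 in DR-/-, with means of 1.08 ± 0.0181 and 1.12 ± 0.0134 (SD, n = 2 each). The populations did not overlap, and the exact permutation test gave p = 0.33. Medians differed little, at 23, 20, 19 and 20.5 reads near telomeres and 23, 19, 18 and 20 elsewhere. When regions of 15-fold enrichment or more in any list were left out of both sides, a choice made after seeing the data, the ratios were 0.998 and 1.01 in DR+/+ and 1.04 and 1.03 in DR-/-. The mean was therefore carried in large part by a few strong regions, while the order of the populations stayed.

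Most of those strong regions lay close to the end, and all were called in both populations. Of the 911 regions, 17 reached a 10-fold enrichment over local background in at least 1 list (1.87%, Wilson interval 1.17 to 2.97%), against 1.08% in the rest. All 17 were common. How many regions of this strength in the rest were common was not counted, so that number has no background. At 15-fold or more there were 8 (0.878%, 0.446 to 1.72%), against 0.199% in the rest (93 regions). These 8 lay on 7 chromosomes, 6 of them within 100 kb of the largest peak end, and 4 were the last region of their chromosome. The other 2 lay 341 kb (chromosome 19) and 473 kb (chromosome 9) from it. Of the 17 at 10-fold or more, 9 lay within 250 kb and the farthest 1734 kb from the end. Fold enrichment is the authors' own value for each peak within its list.

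The region with the highest fold closed chromosome 11, at positions 121843637 to 121843856 (mm9), and was 220 bp wide. Both DR+/+ lists put its fold enrichment near that of the DR-/- lists, at 37.5 and 38.2 against 40.0 and 36.4 (replicate 1 first). The summit held 99 reads in each DR+/+ library and 96 and 89 in the DR-/- libraries. A region of 417 bp on chromosome 9, at 123370921 to 123371337 and 473 kb from the end, had 144, 139, 124 and 132 reads at its summit in the same order. Its fold was 24.0, 23.4, 23.2 and 24.7, so the lists of both populations gave nearly the same value. Chromosome 18 ended in a region of 502 bp at 90771530 to 90772031, with 17.5-fold and 18.1-fold enrichment in DR+/+ and 18.3-fold and 18.1-fold in DR-/-. Chromosome 2 ended in a region of 563 bp at 181747428 to 181747990, with 19.1-fold and 18.9-fold in DR+/+ and 19.5-fold and 18.5-fold in DR-/-. These 4 had the highest mean percentile of all common subtelomeric regions. Which sequence lies at these positions was not analysed here, because the gene table used is of GRCm38 and the peaks are of mm9.

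**Figure D3:**
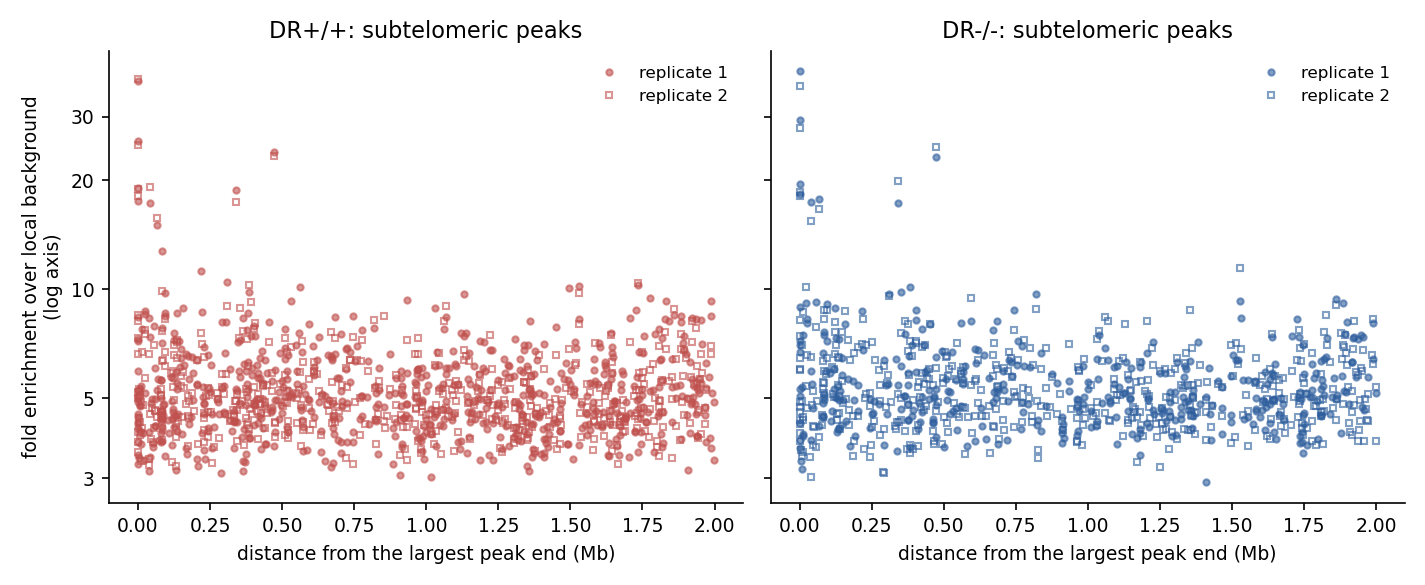
Fold enrichment over local background (log axis) of the subtelomeric regions against their distance in Mb from the largest peak end, for DR+/+ (left) and DR-/- (right); each point is the peak with the highest q-value rank of a region in 1 library. Most points lie between 3-fold and 10-fold at any distance, and the points at 15-fold or more lie within 0.5 Mb of the end in both panels.

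The last regions of the chromosomes ranged from weak to strong. Of the 19, 9 were common, 7 occurred in 1 list, 3 in 2 lists and 0 in 3 lists. None was DR+/+-specific and 1 was DR-/--specific. Over all autosomal regions, 24.8% were common, 8.92% DR+/+-specific and 1.4% DR-/--specific, and 44.1% of the rest occurred in 1 list. At a share of 8.92%, few of 19 regions would be DR+/+-specific, so their absence here says little. Among the DR+/+ libraries, replicate 1 had a peak at 16 of them and replicate 2 at 10, and among the DR-/- libraries these were 10 and 13. Besides the last regions of chromosomes 2, 11 and 18, that of chromosome 5 (152537079 to 152537259) was strong, with 25.7-fold and 25.0-fold enrichment in DR+/+ and 29.4-fold and 27.9-fold in DR-/-. By contrast, the last region of chromosome 13 (120276591 to 120276735) was called in DR+/+ replicate 1 alone, at 3.28-fold and 11 reads.

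The 73 DR+/+-specific regions were spread over all 19 chromosomes and over the whole window. By steps of 0.5 Mb from the end they numbered 21, 20, 18 and 14. These were 7.45%, 10.2%, 8.07% and 6.70% of the regions in each step. Their median width as merged regions was 214 bp, against 228 bp for DR+/+-specific regions elsewhere. They ranked low to middle in their lists, at a median percentile of 46.9 (interquartile range 24.5 to 66.0) in DR+/+ replicate 1 and 43.0 (25.0 to 55.1) in DR+/+ replicate 2. DR+/+-specific regions of the rest had medians of 45.1 and 33.2, and common subtelomeric regions had 82.7 and 73.2 in these lists. Most stood apart from common sites: the median distance to the nearest common region was 69.9 kb (74.7 kb in the rest), and 6 of the 73 lay within 10 kb of one (8.22%, compared with 12.7% in the rest).

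The DR+/+-specific region with the highest mean percentile lay on chromosome 10 at 128947718 to 128947976, 1045 kb from the end. It rose 6.18-fold above background in DR+/+ replicate 1 (26 reads) and 6.65-fold in replicate 2 (24 reads), and neither DR-/- list held a peak there. The next lay on chromosome 7 at 151061365 to 151061647, where replicate 1 had 21 reads and 7.85-fold enrichment and replicate 2 had 17 reads and 6.58-fold enrichment. Chromosome 10 held a further 2 of the first 6, at 129482089 to 129482388 (6.86-fold and 5.77-fold) and 129442280 to 129442729 (5.94-fold and 4.99-fold). These belonged to a row of 4 neighbouring DR+/+-specific regions with no other region between them, the others being 129441248 to 129441476 and 129474230 to 129474432. The last of the 6, on chromosome 16 (97201858 to 97202171), had 6.12-fold and 5.58-fold enrichment. In all, 10 pairs of adjacent regions were both DR+/+-specific, on chromosomes 3, 10, 13, 17, 18 and 19. How often such pairs and rows occur in the rest was not counted, so these numbers have no background.

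The remaining region of the 6 lay 78.6 kb from the end of chromosome 13, at 120197988 to 120198180. Its fold enrichment was 5.63 in DR+/+ replicate 1 and 5.07 in replicate 2, with 22 and 19 reads at the summit. A second DR+/+-specific region followed after 74 bp, at 120198255 to 120198396, with 4.39-fold and 4.56-fold enrichment. A common region lay further out at 120251398 to 120251642, with 8.68-fold and 7.51-fold enrichment in DR+/+ and 8.06-fold and 6.58-fold in DR-/-. In the GRCm38 gene table of RefSeq the last protein-coding genes in order on this chromosome are AF067061, BC147527 and Tcstv3, and Tcstv3 is known for its expression in the 2-cell embryo. On chromosome 10 the last genes in the same order are Vmn2r85, Vmn2r86 and Vmn2r87, and on chromosome 18 they are Dok6, Tmx3 and Gm45871. The order of genes near the ends may differ in mm9, so no peak was assigned to any of these genes, and a link to them was not tested.

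**Figure D4:**
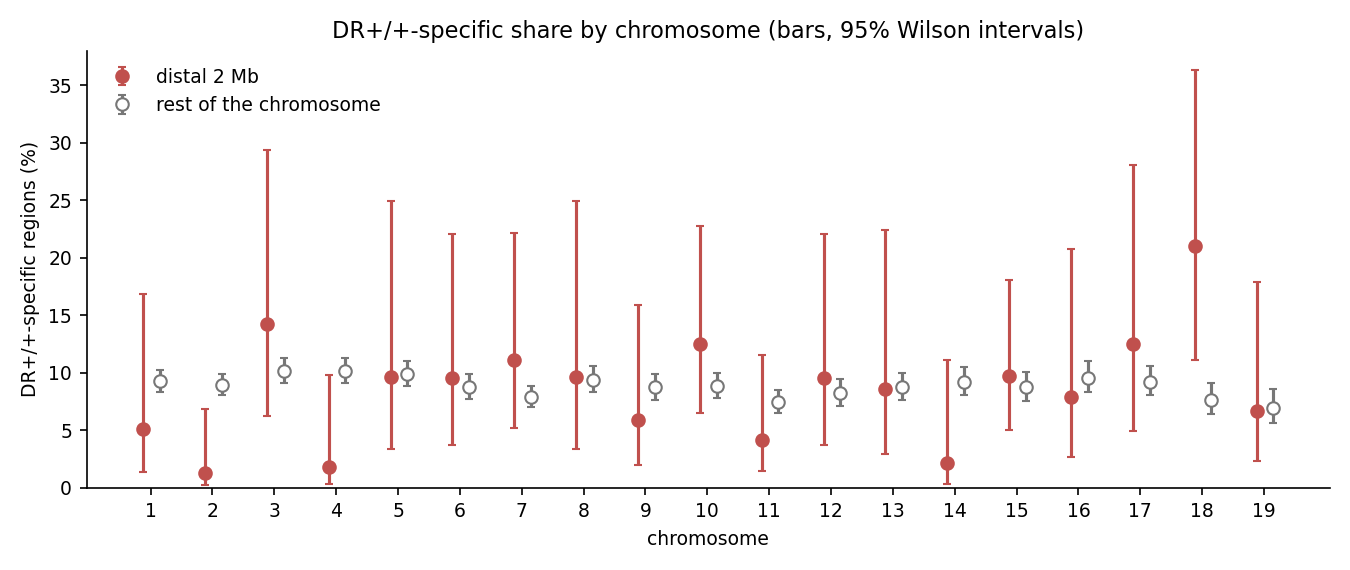
Percent of regions that were DR+/+-specific (y axis) on each chromosome (x axis), in the distal 2 Mb (filled red) and in the rest of the chromosome (open grey), with 95% Wilson intervals. Values in the windows scatter from 1.27% (chromosome 2) to 21.1% (chromosome 18) around the narrow range of the rest.

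Single chromosome ends scattered widely, each on few regions. The DR+/+-specific share was above the chromosome's own rest on 9 of the 19 ends and below it on 10. It was highest on chromosome 18, with 8 of 38 regions (21.1%, 11.1 to 36.3%; 7.64% in the rest of the chromosome), and lowest on chromosome 2, with 1 of 79 (1.27%, 0.224 to 6.83%; 8.96% in the rest). The 8 regions on chromosome 18 lay between 228 and 1513 kb from the end. Their fold enrichment ranged from 3.5 to 5.11 in DR+/+ replicate 1 and from 3.78 to 5.94 in replicate 2, so none was strong. Windows held 31 to 82 regions, and the highest and lowest of 19 are picked for being extreme.

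Peak shares of single chromosome ends moved in opposite directions. On chromosome 2 the window held 64 and 45 peaks of the DR+/+ libraries (replicate 1 first), 2.12% and 2.25% of the chromosome's peaks. The DR-/- libraries had 43 and 60 there, or 2.70% and 3.36%. Chromosome 4 had 44 and 29 against 32 and 43, or 1.72% and 1.71% against 2.36% and 2.93%. On chromosome 18 the window held 32 and 27 peaks in DR+/+ and 12 and 17 in DR-/-, which was 2.63% and 3.55% against 1.84% and 2.20%. On chromosome 13 it held 27 and 19 against 8 and 12, or 1.42% and 1.54% against 0.8% and 1.04%. These 4 were picked after their values were seen.

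Both DR+/+ shares lay below both DR-/- shares on 9 of 19 ends (chromosomes 1, 2, 4, 5, 6, 7, 9, 11 and 16), and above them on 6 (chromosomes 3, 8, 10, 12, 13 and 18). Among all 821 windows of 2 Mb with at least 31 regions, the number of the sparsest end, 30.7% had both DR+/+ shares below and 23.5% above. Together 15 of 19 ends (78.9%) separated the populations in either direction, compared with 53.6% of the 802 other such windows. This background was chosen after the data were seen, and with 19 ends and counts of 8 to 68 peaks per library it is a description.

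**Figure D5:**
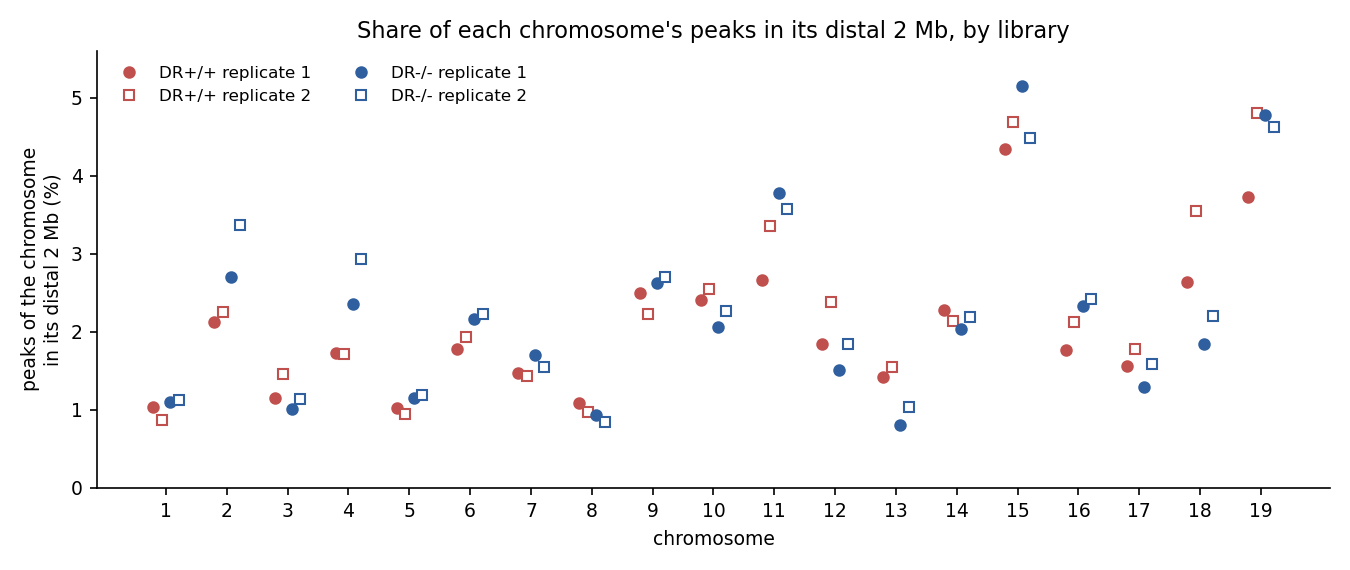
Percent of each chromosome's peaks that fall in its distal 2 Mb (y axis) for each chromosome (x axis), 1 symbol per library, red for DR+/+ and blue for DR-/-. On chromosomes 2, 4 and 11 both DR-/- symbols lie above both DR+/+ symbols, and on chromosomes 13 and 18 both lie below them.

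The 12 DR-/--specific regions ranked low to middle in their lists as well. Their median percentile was 41.0 (interquartile range 26.2 to 43.9) in DR-/- replicate 1 and 43.0 (9.09 to 54.5) in replicate 2. DR-/--specific regions of the rest had medians of 31.2 and 33.1. The first by mean percentile lay on chromosome 8 at 131271847 to 131272137, with 15 reads and 4.96-fold enrichment in DR-/- replicate 1 and 21 reads and 6.03-fold enrichment in replicate 2. The second, on chromosome 5 (151992628 to 151992904), was enriched 5.61 and 5.65 times over background. The third lay on chromosome 11 (120794110 to 120794264), at 4.85 and 6.33 times, and the fourth on chromosome 12 (119897935 to 119898184), at 4.87 and 5.01 times. One of the 12 was the last region of chromosome 14, at 125191516 to 125191753, with 11 and 14 reads.

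The regions nearest the 2 Mb limit were mostly seen in 1 list. The nearest regions inside were on chromosome 16 at 96304323 to 96304450, called in DR-/- replicate 2 alone, and on chromosome 10 at 127993490 to 127993614, called in DR+/+ replicate 1 alone. The nearest outside were on chromosome 15 at 101486326 to 101486440, called in DR+/+ replicate 2 alone, and on chromosome 16 at 96303044 to 96303300, which was common. From 1.5 to 2 Mb, just inside, the common and DR+/+-specific shares were 33.0% and 6.7%, and from 2 to 4 Mb, just outside, they were 25.7% and 6.69%.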

How the data were processed

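ATAC-seq peak lists of 4 libraries were used, 1 per library and not pooled. The build is mm9, and the tools named are Bowtie2 2.3.0, SAMtools 0.1.19 and FastQC 0.10.1, per the submitters' processing notes. Not given in the sources used here are the peak caller, any shift of reads to the Tn5 cut, and how duplicate or multiply mapped reads were treated; the last decides which peaks in duplicated sequence are called. Each peak has, as deposited by the authors, a score (10 times the −log10 q-value, as a whole number), a ratio (fold enrichment over local background), and its p-value and q-value as −log10 (smallest q-value entry 1.31 to 1.32). Read depth is not stated. The summit pileup was worked out from fold and p-value, taken as (pileup + 1)/(background + 1) and a Poisson upper tail, and 100% of autosomal peaks gave a whole number within 0.001 of the deposited −log10 p-value. The deposited score and summit position were not used.

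Peaks were merged and distances measured in Python 3.11.15 (SciPy 1.17.1, NumPy 2.4.6, pandas 2.3.3); Matplotlib 3.10.9 drew the figures. Positions are 1-based. Libraries were grouped by their titles. Population means of 1 value per library were compared by exact permutation. Regions named are the 6 DR+/+-specific, 4 DR-/--specific and 4 common ones with the highest mean percentile, the last of each chromosome, those at the 2 Mb limit, and the ends with the extreme shares; others were named after their values were seen. The regions and comparisons were chosen with earlier results of these data known. Alternatives were windows of 1 and 5 Mb, the stronger 50% of each list, equal lists, 50% reciprocal overlap, gaps of 500 bp bridged, comparison regions at least 10 Mb from both ends, leaving out the chromosome with the most members or each library, and a replicate block. The code was tested on simulated lists.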

Additional observations from a re-analysis of the deposited data

How the results depend on the processing

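The 5 differences between populations kept their sign in every alternative, and none could pass the threshold with this number of libraries. The difference in peak share ran from -0.395 (window of 5 Mb) to -0.0720 percentage points (without DR+/+ replicate 1), that in relative presence from -0.126 to -0.0283, that in relative width from -0.0718 to -0.00657, that in rank from -4.14 to -0.833 and that in relative pileup from -0.0463 to -0.0278. With the replicate block the differences stayed -0.151, -0.0753, -0.0270, -2.49 and -0.0370, each with p = 0.5 in the exact test, the smallest it can give with 2 pairs. The deviations of same-numbered libraries from their group means had r = -0.0198 over 11850 common regions (2 pairs). With 2 pairs this cannot show whether the numbers pair the libraries, and outside the block they were left unpaired.

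The ratio of the DR+/+-specific share to the rest stayed between 0.838 and 1.02 and was below 1 in 11 of 12 alternatives. Counts moved with the definitions, as did the number of subtelomeric regions. It was 479 within 1 Mb, 2192 within 5 Mb, 470 in the stronger 50% and 689 with equal lists. DR+/+-specific regions numbered 41 within 1 Mb (8.56%, against 8.92% in the rest) and 165 within 5 Mb (7.53%, against 8.99%). They numbered 36 in the stronger 50% of each list (7.66%, against 8.90%) and 34 with equal lists (4.93%, against 4.83%). When 1 library was left out they ran from 95 (10.7%, against 12.5% in the rest) to 283 (33.1%, against 38.8%). DR-/--specific regions numbered 5 within 1 Mb (1.04%, against 1.40% in the rest) and 29 within 5 Mb (1.32%, against 1.40%). They numbered 3 in the stronger 50% (0.638%, against 1.41%) and 28 with equal lists (4.06%, against 4.24%). With 50% reciprocal overlap there were 24 (2.17%, against 1.94%). Without 1 library they ran from 18 (2.11%, against 2.18%) to 71 (8.03%, against 7.61%). Common regions numbered 149 within 1 Mb, 577 within 5 Mb and 139 in the stronger 50%, and their share exceeded that of the rest in each of the 12 alternatives. Leaving out a library removes a condition from every class, since neither presence in it nor absence from it is then required, and all these counts were higher. Peaks of about 16 reads limit what absence from a list can show.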
